A study of Mus musculus with 16 samples.

Results

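The Sox family members examined here were Sox2, Sox4, Sox5, Sox7, Sox9, Sox11, Sox17 and Sox18, read on whole mouse lungs that lack T1α (gene symbol Pdpn), a membrane protein of alveolar type I cells, and on wild-type lungs. Members were all probe sets whose array annotation gave a single gene symbol that is one of these names, which found 11 probe sets of 7 genes among 12488 probe sets (8252 genes with a single symbol). Sox9 had no such probe set in the annotation used here. The family was chosen by measured signals of Sox2, higher at term than at E18.5, and of Sox11, unlike between genotypes at E18.5, so those contrasts are described below without a test. A further 11 probe sets carry the names Sox1, Sox3, Sox6, Sox10, Sox13 and Sox15 and were not followed.

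There were 16 arrays in 4 groups: 3 T1α(-/-) lungs at term (replicates F to H), 3 T1α(+/+) lungs at term (N to P), 5 T1α(-/-) lungs at E18.5 (A to E) and 5 T1α(+/+) lungs at E18.5 (I to M). E18.5 is embryonic day 18.5, shortly before birth, and term lungs were taken just after delivery. The null allele is a germline allele made by gene targeting and the mice came from crosses of heterozygotes. All 16 lungs were whole organs, so fewer cells of a type and less RNA per cell cannot be told apart. Strain, litter and sex were not given in the sources used here.

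The targeted gene followed the labels. Pdpn gave a signal of 8.6 to 30.0 in (-/-) lungs at term against 39.7 to 214.9 in (+/+) lungs at term, and of 1.4 to 21.2 in (-/-) lungs at E18.5 against 60.2 to 135.5 in (+/+) lungs at E18.5. Of 4 lung epithelial markers with a probe set, Sftpc and Sftpb, which encode surfactant proteins, read at least 5027.3 and 1378.7 on every array and Scgb1a1, of club cells, at least 868.5, while Sftpd, a further surfactant protein gene, read 5.8 to 53.7. Other values set some arrays apart. The 3' to 5' signal ratio of GAPDH, a measure of how complete the labelled RNA is, reached 2.63 in replicate G, 1.84 in N and 2.55 in O, against 0.827 to 1.11 in the other 3 term arrays and 0.962 to 1.72 at E18.5. The same ratio of actin was 1.97 in G, 2.72 in N and 1.35 in O, against 1.55 in F, 1.46 in H and 1.30 in P. Summed signals of 6 heart muscle markers ran from 798.5 to 14003.8, with the lowest and the highest arrays in different groups. Xist, which marks female tissue, read 6.7 to 10.2 in all 3 (+/+) lungs at term, below its 14.3 to 80.0 in (+/+) lungs at E18.5, and 7.3, 75.8 and 10.6 in (-/-) lungs at term.

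SOX proteins are transcription factors related to the testis-determining factor SRY, and they bend DNA by binding in its minor groove through a shared HMG box. Subfamilies are named by letter and their members often stand in for each other. In the lung SOX2 is known from the conducting airway epithelium, SOX9 from the tips of the branching tubules and from tracheal cartilage, and SOX7, SOX17 and SOX18 from endothelium. SOX4 and SOX11 act in progenitor and mesenchymal cells of many organs, and mice without Sox11 have underdeveloped lungs.

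The promoters of Sox2 and Sox11 are shown because the choice of the family rested on these genes. Each is the 250 bases upstream of the start site in RefSeq (GRCm38.p6), and capitals mark matches to the motifs searched. The Sox2 stretch lies at chr3:34649745-34649994 on the plus strand and the Sox11 stretch at chr12:27342719-27342968 on the minus strand.
Sox2: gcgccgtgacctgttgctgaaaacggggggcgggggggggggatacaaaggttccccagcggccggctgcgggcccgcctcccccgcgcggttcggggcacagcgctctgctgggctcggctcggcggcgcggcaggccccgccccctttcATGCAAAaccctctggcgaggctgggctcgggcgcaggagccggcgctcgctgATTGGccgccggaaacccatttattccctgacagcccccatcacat
Sox11: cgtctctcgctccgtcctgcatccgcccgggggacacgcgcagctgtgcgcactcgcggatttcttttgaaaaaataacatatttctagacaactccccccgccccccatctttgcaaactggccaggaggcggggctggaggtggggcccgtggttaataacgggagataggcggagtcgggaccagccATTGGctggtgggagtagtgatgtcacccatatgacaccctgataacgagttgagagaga
On both strands the search covered a core SOX site written AACAAT, a SOX2-type site written ACAATG, the CCAAT box, a TATA box written TATAAA and the octamer written ATGCAAA. The Sox2 promoter held CCAAT, read as ATTGG on the strand shown, 46 bases before the start, and ATGCAAA 99 bases before it. CCAAT was found in 33.8% and ATGCAAA in 4.12% of 32851 mouse promoters of the same length. In the Sox11 promoter CCAAT, again as ATTGG, was found 60 bases before the start. Neither held an exact match to the core SOX site, found in 9.42% of all promoters, the SOX2-type site, found in 10.7%, or the TATA box, found in 12.4%. Other forms of a SOX site were not searched. The G and C content was 72% for Sox2 and 58% for Sox11, against a median of 52.4%. Of the other members, entries matched for Sox4 and Sox5 only, and none for Sox7, Sox9, Sox17 or Sox18.

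Sox2, a factor that airway epithelium and its basal cells depend on, had more signal at term than at E18.5 in both genotypes. Its probe set (100009_r_at) read 116.7, 126.0 and 87.7 in (-/-) lungs at term, against 16.4, 39.5, 23.5, 41.5 and 53.8 in (-/-) lungs at E18.5. Every (-/-) array at term was above every (-/-) array at E18.5. The (+/+) lungs gave 158.4, 234.8 and 60.6 at term, against 49.5, 36.0, 35.1, 19.8 and 40.2 at E18.5. These groups did not overlap either, although replicate P at 60.6 stood close to the highest E18.5 lung at 49.5. Means were 110.1 ± 20.0 (SD, n = 3) at term and 34.9 ± 14.95 (SD, n = 5) at E18.5 in (-/-) lungs, a ratio of 3.15. In (+/+) lungs they were 151.3 ± 87.3 (SD, n = 3) at term and 36.1 ± 10.8 (SD, n = 5) at E18.5, a ratio of 4.19. On the scale of log2(signal + 16) the differences were 1.35 ± 0.27 (SE) in (-/-) and 1.55 ± 0.35 (SE) in (+/+) lungs. These are the values that the choice of genes rested on and no test is given. Groups that lay wholly higher at term made up 15.9% of the 6193 probe sets tested in (-/-) lungs and 12.8% of the 6145 tested in (+/+) lungs.

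In order of level, Sox2 was highest in (+/+) lungs at term, then (-/-) at term, (+/+) at E18.5 and (-/-) at E18.5, and neighbours within an age did not differ beyond their spread. Between genotypes at term the Sox2 difference, (-/-) minus (+/+), was -0.26 with a 95% interval of -1.12 to 0.60 (limma, adjusted p = 0.9998). An exact permutation test of the same arrays gave p = 0.70, and 3 against 3 cannot go below 0.1. At E18.5 the Sox2 signal was under the expression filter in both genotypes, and the exact permutation p was 0.84 (5 against 5, two-sided, smallest possible 0.00794). The genotype difference at term minus that at E18.5 was -0.20 ± 0.46 (SE) for Sox2. It is also the difference between the 2 changes over time that chose Sox2, so no test is read from it. The suffix r of this probe set means that some selection rules were relaxed when its probes were designed, and no other Sox2 probe set was there to set beside it.

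**Figure D1:**
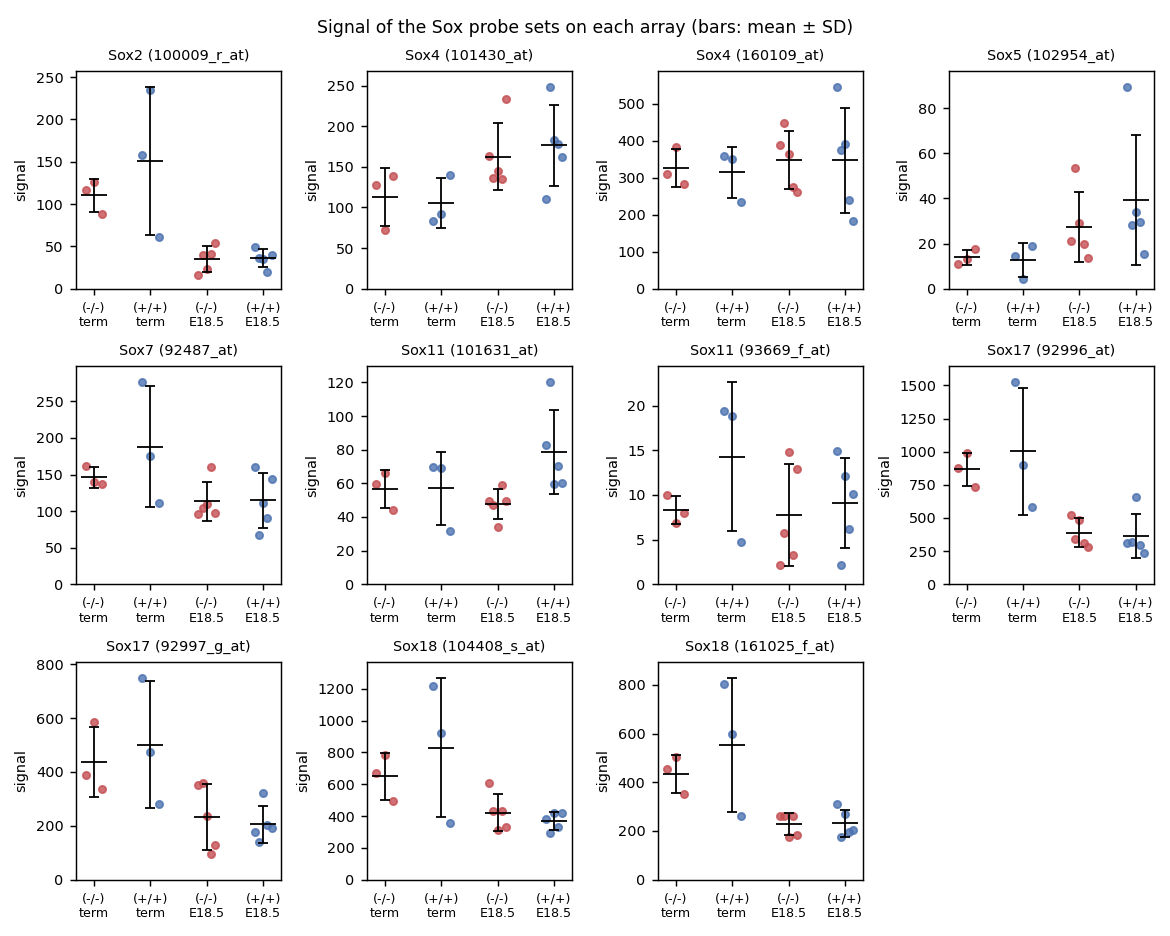
Signal (linear, no unit, axis from 0) of each Sox probe set on each of the 16 arrays, with (-/-) lungs in red and (+/+) lungs in blue, and black bars for the mean ± SD of each group. The 3 arrays of each term group lie above the E18.5 arrays of their genotype for Sox2, while Sox4 and Sox5 overlap between ages, and the (+/+) lungs at term spread widest for Sox2, Sox7, Sox17 and Sox18.

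Sox11 belongs to the C subfamily with Sox4. Its probe set 101631_at read 49.5, 46.9, 33.9, 59.0 and 49.6 in (-/-) lungs at E18.5, against 82.7, 120.1, 59.7, 70.4 and 60.1 in (+/+) lungs at E18.5. The groups did not overlap, but the highest (-/-) lung, D at 59.0, and the lowest (+/+) lung, K at 59.7, nearly met. Means were 47.8 ± 9.02 in (-/-) and 78.6 ± 25.03 in (+/+) lungs (SD, n = 5 each), which is 0.608 of the (+/+) mean. The log2 difference was -0.54 ± 0.22 (SE). This contrast chose Sox11, so it carries no test. Of the 5879 probe sets tested at E18.5, 0.476% lay wholly lower in (-/-) lungs. Over 21 alternative settings and left-out arrays the log2 difference ranged between -0.69 and -0.34, which lends no support to a contrast chosen from these values. The probe set passed the E18.5 filter, a signal of 53.4, only through the (+/+) lungs, with a median of 70.4. The median of the (-/-) lungs, 49.5, was under it.

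At term the Sox11 signals were 59.3, 66.2 and 44.3 in (-/-) lungs against 69.9, 69.2 and 31.7 in (+/+) lungs. The groups overlapped fully, with a difference of 0.03 and a 95% interval of -0.59 to 0.65 (limma, adjusted p = 0.9998). The genotype difference at term minus that at E18.5, which contains the chosen contrast, was 0.58 ± 0.36 (SE). Over time Sox11 moved by 0.19 ± 0.22 (SE) in (-/-) lungs and by -0.39 ± 0.29 (SE) in (+/+) lungs, with overlapping groups in both. Both changes rest on the E18.5 values that chose Sox11, so no test is read from them. In order, (+/+) lungs at E18.5 were highest, the 2 term groups were almost level at 56.6 in (-/-) and 56.9 in (+/+) lungs, and (-/-) lungs at E18.5 were lowest. A second Sox11 probe set, 93669_f_at, whose suffix f marks probes shared within a sequence family, read 2.1 to 19.4 over all 16 arrays, below the filter in every comparison. At E18.5 it read 7.78 ± 5.72 in (-/-) and 9.08 ± 5.03 in (+/+) lungs (SD, n = 5 each), so it did not bear on the difference.

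Sox4, the other C member, is active in progenitors and in cells that change from epithelial to mesenchymal form. Its probe set 101430_at read 127.3, 71.8 and 139.2 in (-/-) lungs at term, against 162.9, 136.7, 144.7, 134.5 and 233.1 in (-/-) lungs at E18.5. Signals in (+/+) lungs were 83.6, 92.4 and 140.5 at term, against 109.9, 248.7, 183.7, 177.6 and 161.9 at E18.5. Most term arrays were low, but 1 array of each genotype at term fell among the E18.5 arrays. The log2 differences were -0.49 (adjusted p = 0.15) in (-/-) and -0.65 (adjusted p = 0.11) in (+/+) lungs by limma, and neither passed. The second Sox4 probe set, 160109_at, averaged 325.8 ± 51.2 at term and 347.1 ± 78.5 at E18.5 in (-/-) lungs, and 314.0 ± 69.7 at term and 347.0 ± 142.0 at E18.5 in (+/+) lungs (SD). Its log2 differences were -0.07 in both genotypes, so the 2 Sox4 probe sets gave unlike sizes. Between genotypes the Sox4 differences lay between -0.10 and 0.07 at both ages.

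A short list of early neural genes and targets known for the C subfamily was set beside Sox4 and Sox11. Of its 16 genes on the array 6 passed the filter at each age, and none was called between genotypes. Of all probe sets tested, 0.034% were called between genotypes at E18.5 and 0% at term, so the count of none is near that of the whole array. Their median difference at E18.5 was -0.08, against 0.04 over all probe sets tested. The summed signal of the whole list was 1278.9 to 1539.9 in (-/-) lungs at E18.5 and 1419.5 to 2187.9 in (+/+) lungs at E18.5, which overlap. Over time, 2 fell and 1 rose in (-/-) lungs and 3 fell and 1 rose in (+/+) lungs, where 26.7% and 18.6% of all probe sets were called. Stmn2, a microtubule regulator of neurons, fell by 0.93 in (-/-) lungs (limma, adjusted p = 0.0107) and fell by 1.29 in (+/+) lungs (limma, adjusted p = 0.00254). Ncam1, a neural adhesion molecule, fell by 0.85 in (-/-) lungs and fell by 0.98 in (+/+) lungs. Mapt, which encodes the microtubule protein tau, rose by 0.79 in (-/-) and by 1.16 in (+/+) lungs. The summed signal of 6 defining neural markers was 301.3 to 434.3 in (-/-) and 204.5 to 536.6 in (+/+) lungs at term, and 436.6 to 781.9 in (-/-) and 395.7 to 608.9 in (+/+) lungs at E18.5. Nefm, a neurofilament gene, read 1.6 to 15.1, none was at 0 on every array, and their part in the Sox4 and Sox11 values was not tested.

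Sox5, a D member that lacks an activation domain and acts with SOX9 in cartilage, stayed under the filter in all 5 comparisons. It read 10.7, 13.2 and 17.6 in (-/-) lungs at term, against 20.9, 53.4, 28.9, 20.0 and 13.6 at E18.5. It read, in (+/+) lungs, 14.5, 4.4 and 18.9 at term, against 89.5, 28.1, 33.9, 29.5 and 15.2 at E18.5. Term arrays were mostly the lower ones in each genotype, with overlap. The exact permutation p was 0.071 in either genotype, where 3 against 5 cannot go below 0.036. Of the cartilage genes set beside it, Col9a1, a cartilage collagen gene, fell by 0.74 in (-/-) lungs (limma, adjusted p = 0.0228) and fell by 0.96 in (+/+) lungs (limma, adjusted p = 0.0332). It was the one gene called of 5 tested in (-/-) and of 4 tested in (+/+) lungs, where 26.7% and 18.6% of all probe sets were called.

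The F subfamily, Sox7, Sox17 and Sox18, works in endothelial cells, where its members govern arterial fate, vessel formation and, for SOX18, the first lymphatic cells. Sox17 probe set 92996_at read 877.6, 987.9 and 736.1 in (-/-) lungs at term, against 525.5, 344.5, 486.2, 310.7 and 278.1 in (-/-) lungs at E18.5. The (-/-) groups did not overlap. In (+/+) lungs it read 1523.5, 901.6 and 583.6 at term, against 313.9, 317.2, 657.7, 297.0 and 238.6 at E18.5. Here replicate K at E18.5, at 657.7, stood above replicate P at term. Sox17 rose by 1.16 ± 0.24 (SE) in (-/-) lungs (limma, adjusted p = 0.00546) and by 1.40 ± 0.35 (SE) in (+/+) lungs (limma, adjusted p = 0.0134). The signal ratios were 2.23 in (-/-) and 2.75 in (+/+) lungs. Two-sided exact permutation tests gave p = 0.036 in (-/-) lungs, the smallest that 3 against 5 allows, and p = 0.071 in (+/+) lungs.

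The second Sox17 probe set, 92997_g_at, whose suffix g marks probes held in common with another set, read 387.8, 584.4 and 337.0 in (-/-) lungs at term, against 350.1, 358.3, 237.5, 94.1 and 127.4 at E18.5. For (+/+) lungs the signals were 749.3, 473.3 and 280.9 at term, against 177.4, 138.9, 321.6, 202.9 and 191.7 at E18.5. Both genotypes overlapped between ages. Its rise of 1.16 ± 0.33 (SE) passed in (+/+) lungs (limma, adjusted p = 0.0226), and its difference of 0.98 ± 0.38 (SE) in (-/-) lungs did not (limma, adjusted p = 0.073). By exact permutation p was 0.071 in (+/+) and 0.107 in (-/-) lungs.

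Sox18 probe set 161025_f_at also has the suffix f, for probes shared within a sequence family, so its signal may not be of Sox18 alone. It read 453.2, 503.1 and 350.6 in (-/-) lungs at term, against 260.0, 262.1, 175.9, 260.5 and 183.7 at E18.5. In (+/+) lungs it read 803.6, 599.0 and 259.5 at term, against 311.4, 177.3, 268.7, 197.7 and 202.4 at E18.5. The (-/-) groups were separate, while in (+/+) lungs replicate P fell among the E18.5 arrays. The rise was 0.89 ± 0.22 (SE) in (-/-) lungs (limma, adjusted p = 0.0113) and 1.09 ± 0.33 (SE) in (+/+) lungs (limma, adjusted p = 0.0327). By exact permutation p was 0.036 in (-/-) lungs, the smallest that 3 against 5 allows, and 0.107 in (+/+) lungs. The other Sox18 probe set, 104408_s_at, whose probes may match more than one transcript, read 671.2, 783.6 and 491.9 in (-/-) lungs at term against 310.7 to 605.3 at E18.5. Values in (+/+) lungs were 1215.4, 920.7 and 353.2 at term against 291.6 to 419.5 at E18.5. Its differences of 0.62 in (-/-) lungs (limma, adjusted p = 0.0824) and 0.98 in (+/+) lungs (limma, adjusted p = 0.0561) had the same sign and missed the threshold.

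Sox7 gave smaller differences. It read 162.3, 139.9 and 136.4 in (-/-) lungs at term against 95.5 to 160.2 at E18.5, and 276.2, 175.9 and 111.7 in (+/+) lungs at term against 67.9 to 160.2 at E18.5. The groups overlapped and the log2 differences were 0.34 ± 0.20 (SE) in (-/-) and 0.61 ± 0.31 (SE) in (+/+) lungs (limma, adjusted p = 0.22 and 0.18).

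Counted over the family, 9 of the 11 probe sets passed the filter in each comparison over time. Setting Sox2 aside, 2 of 8 were called in (-/-) lungs, both higher at term, where 26.7% of all probe sets were called and 13.8% were called higher. In (+/+) lungs 3 of 8 were called, again all higher, where 18.6% were called and 10.6% called higher. Sox11 is counted among the 8 and was not called, although its E18.5 values took part in the choice. No test is read from its place in these counts and in the medians below. In (-/-) lungs it passed the filter of 50.1 only through term, with a median of 59.3 against 49.5 at E18.5. In either direction, the share in (-/-) lungs, 25%, was near that of the whole array. The 2 probe sets of a gene read the same transcripts and are not independent. With Sox2 left out, the median over the 8 was 0.48 in (-/-) and 0.80 in (+/+) lungs, against -0.06 in (-/-) and -0.04 in (+/+) lungs over all probe sets tested. The 2 calls in (-/-) lungs, Sox17 92996_at and Sox18 161025_f_at, held in all 20 alternatives, leaving out each array included. In (+/+) lungs none of the 3 calls was left without replicate N, where Sox17 92996_at gave 1.05 with an adjusted p of 0.12 by limma. Without replicate J or O only Sox17 92996_at was left, and without L or M Sox18 161025_f_at was lost. Without P, Sox18 104408_s_at also rose (adjusted p = 0.00337), and without I, Sox4 101430_at fell by 0.79 (adjusted p = 0.0474). In (-/-) lungs Sox18 104408_s_at also passed without A (0.75, adjusted p = 0.0422) and Sox17 92997_g_at without B (1.17, adjusted p = 0.0329).

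**Figure D2:**
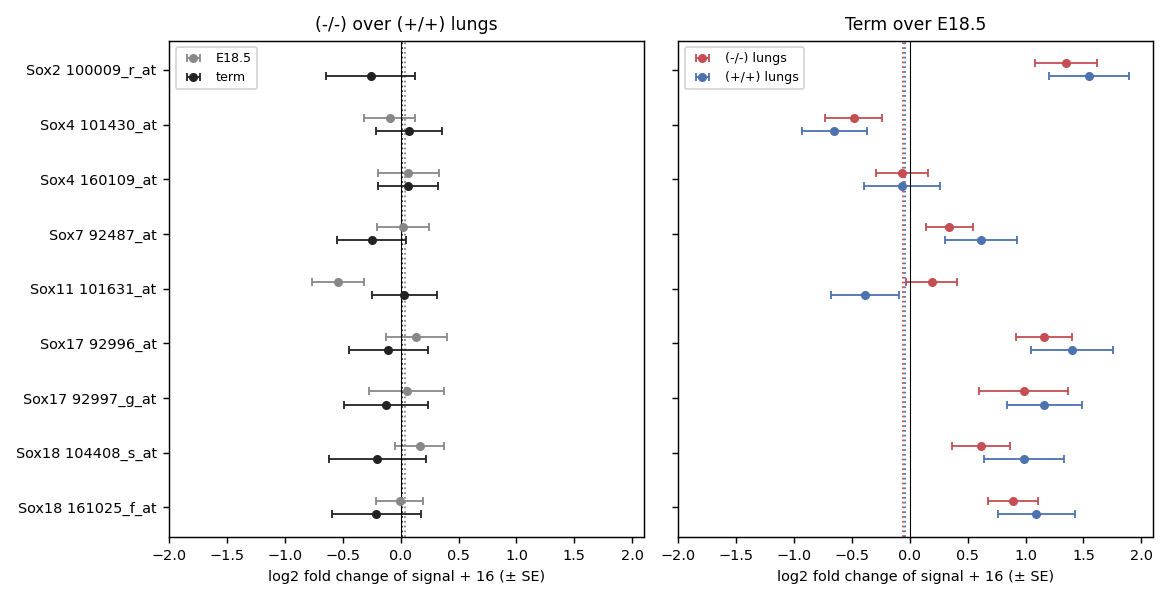
Log2 fold change of signal + 16 (points, bars ± SE) for the Sox probe sets that passed the filter, (-/-) over (+/+) lungs at each age on the left and term over E18.5 in each genotype on the right. Dotted lines mark the median of all probe sets tested. Over time Sox17 and Sox18 lie between 0.62 and 1.40. The points of Sox2 over time and of Sox11 at E18.5 are the values that chose the family, so no test is read from their bars. On the left all other bars reach or cross 0.

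At term the arrays with a high GAPDH ratio were also those with high Sox2, Sox17 and Sox18 signal. By the actin ratio, O at 1.35 was not among the high arrays. Replicates G, N and O, with GAPDH ratios of 1.84 to 2.63, read 126.0, 158.4 and 234.8 for Sox2. Replicates F, H and P, with GAPDH ratios of 0.827 to 1.11, read 116.7, 87.7 and 60.6. For Sox17 92996_at the first 3 read 987.9, 1523.5 and 901.6 and the other 3 read 877.6, 736.1 and 583.6. With the GAPDH ratio as a covariate, Sox17 92996_at rose by 1.14 in (-/-) lungs (limma, adjusted p = 0.00808) and by 1.12 in (+/+) lungs (limma, adjusted p = 0.0435). Sox18 161025_f_at rose by 0.84 in (-/-) lungs (limma, adjusted p = 0.016), and its difference in (+/+) lungs was 0.80 (limma, adjusted p = 0.10). With Xist as a covariate Sox17 92996_at still rose by 1.20 in (-/-) lungs (limma, adjusted p = 0.00658). In (+/+) lungs, where Xist was lower in all 3 lungs at term than in all 5 at E18.5, it gave 0.85 (limma, adjusted p = 0.34) and none of the 8 was called.

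**Figure D3:**
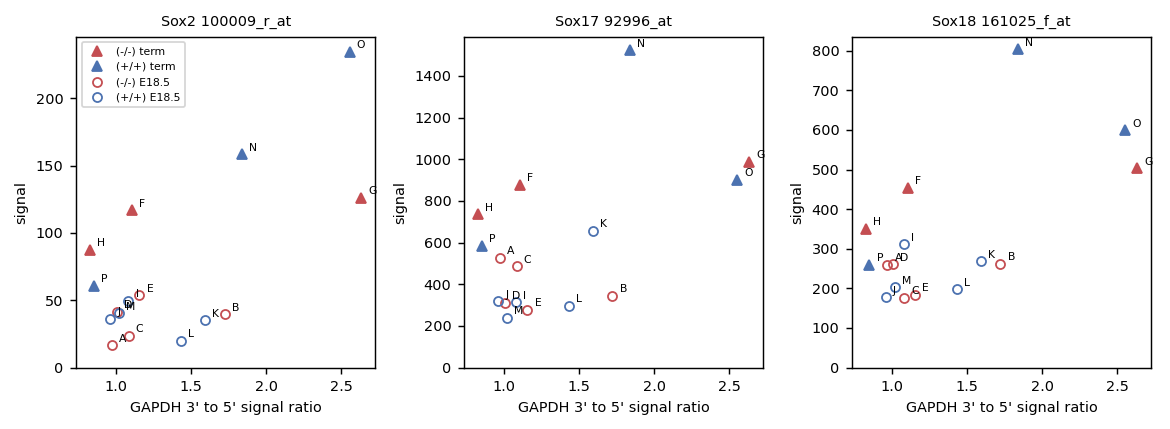
Signal of Sox2, Sox17 and Sox18 (vertical axes, linear, from 0) against the GAPDH 3' to 5' signal ratio of the same array (horizontal axis), 1 letter per array, triangles for term and circles for E18.5, red for (-/-) and blue for (+/+) lungs. At term G, N and O, at ratios of 1.84 to 2.63, lie above F, H and P in all 3 panels, and no E18.5 lung has a ratio above 1.72.

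Between genotypes no Sox probe set was called. At E18.5 none of 7 tested probe sets, Sox11 left out, passed by limma, and none had an unadjusted p under 0.05, where 0.034% of all probe sets were called and 5.31% had such a p. At term none of 9 passed or had an unadjusted p under 0.05, where 0% were called and 0.68% had such a p. The 95% intervals ran from -0.64 to 0.74 at E18.5 and from -1.14 to 0.73 at term, so that differences of about those sizes could not be told from 0. The test of whether the genotype difference changed between ages called none of 8 probe sets and 0% of all probe sets, with 1.47% of all and none of the 8 at an unadjusted p under 0.05. Sox2 is counted among the 8, although its chosen changes over time make up its value there, so no test is read from its place in that count. Sox17 92996_at, for example, averaged 867.2 ± 126.2 in (-/-) and 1002.9 ± 478.1 in (+/+) lungs at term (SD, n = 3 each), a log2 difference of -0.11.

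Endothelial genes were set beside the F subfamily. The summed signal of 5 defining markers (Pecam1, Cdh5, Kdr, Tek and Tie1) was 1275.3 to 1726.6 in (-/-) lungs at term against 990.9 to 1117.9 at E18.5, and 1254.6 to 1670.2 in (+/+) lungs at term against 688.7 to 1113.3 at E18.5. All 6 term sums were above all 10 E18.5 sums, but the gap came mainly from Cdh5, which read 756.7 to 1023.6 in (-/-) lungs at term against 473.9 to 572.9 at E18.5, and 686.3 to 992.7 in (+/+) lungs at term against 266.9 to 534.6 at E18.5. Kdr, Tek, Tie1 and Pecam1 overlapped between ages in both genotypes, and Pecam1 read 10.6 to 52.4 in (+/+) lungs at term against 30.4 to 134.3 at E18.5. The part of these markers in the rise of Sox17 and Sox18 was not tested. Of 19 endothelial genes tested in (-/-) lungs 3 rose and 1 fell, and of 18 tested in (+/+) lungs 3 rose and 1 fell, where 26.7% of all probe sets in (-/-) and 18.6% in (+/+) lungs were called. These shares are near those of the whole array. Their median was 0.10 in (-/-) and 0.32 in (+/+) lungs. Efnb2, a ligand that marks arteries, rose by 1.56 in (-/-) lungs (limma, adjusted p = 0.00132) and by 1.10 in (+/+) lungs (limma, adjusted p = 0.00684). Cdh5, the cadherin of endothelial junctions, rose by 0.72 in (-/-) lungs and by 1.05 in (+/+) lungs. Gja5, a gap junction protein of arterial endothelium and of the heart, fell by 1.39 in (-/-) lungs and fell by 1.21 in (+/+) lungs. Notch4 (0.84) was also called in (-/-) lungs and Cldn5 (1.10) in (+/+) lungs.

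Airway and distal epithelial genes were set beside Sox2. Of 6 airway genes tested, 1 rose and 2 fell in (-/-) lungs and 1 rose in (+/+) lungs, where 26.7% and 18.6% of all probe sets were called. Scgb1a1, the main secretory product of club cells, averaged 4772 at term and 2794 at E18.5 in (-/-) lungs, a rise of 0.77 (limma, adjusted p = 0.0147). In (+/+) lungs it rose by 1.33 (limma, adjusted p = 0.0319). In (-/-) lungs the epithelial mucin gene Muc1 fell by 1.18 and Cyp2f2, a club cell enzyme, fell by 1.01. Of 9 distal genes, 2 rose and 3 fell in each genotype. Foxa1 and Foxa2, factors of the whole lung epithelium, rose by 0.80 and 1.02 in (-/-) and by 0.92 and 1.03 in (+/+) lungs. Sftpc fell by 1.45 in both genotypes. Sftpb fell by 1.23 in (-/-) lungs and fell by 1.14 in (+/+) lungs. The summed signal of 4 lung epithelial markers was 11469.4 to 15378.2 in (-/-) lungs at term against 20693.1 to 32704.3 at E18.5, and 10976.2 to 13235.2 in (+/+) lungs at term against 15267.0 to 29797.1 at E18.5. The Sox2 signal was thus high on arrays where this sum, made up mostly of Sftpc, was low, and its part in the Sox2 values was not tested. Among factors that partner or oppose SOX proteins in beta-catenin signalling, Apc, a scaffold that holds beta-catenin down, fell by 0.79 in (-/-) lungs (limma, adjusted p = 0.0137). The other 10 genes tested in (-/-) and all 11 in (+/+) lungs were not called.

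The genes most like Sox2 and Sox11 were ranked by the mean absolute difference of log2 values over the 16 arrays, each gene centred on its own mean, among 5854 candidates. For Sox2, which itself lay 0.68 from its mean on average, the nearest were Ap3s1 at 0.21, Emc6 at 0.24, Mettl9 at 0.25, Dcun1d5 at 0.25 and a Bmp4 probe set (93456_r_at) at 0.26. Ap3s1, a subunit of a vesicle adaptor complex, averaged 320.2 ± 46.1 in (-/-) and 389.4 ± 147.5 in (+/+) lungs at term, and 144.9 ± 18.7 in (-/-) and 134.6 ± 18.4 in (+/+) lungs at E18.5 (SD). The Bmp4 probe set averaged 155.2 in (-/-) and 168.4 in (+/+) lungs at term, and 41.7 in (-/-) and 53.3 in (+/+) lungs at E18.5. Bmp4, a growth factor of the distal buds, also has the probe set 93455_s_at, which fell by 1.02 in (+/+) lungs, so its 2 probe sets disagree. For Sox11, which lay 0.27 from its own mean, the nearest were Zc3h15 at 0.16, Rad23b at 0.17, Hnrnpul2 at 0.17, Cbfb at 0.17 and Tpgs2 at 0.17, a distance that is not far below its own spread. The points share their arrays and scaling, and the likeness is a description.

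**Figure D4:**
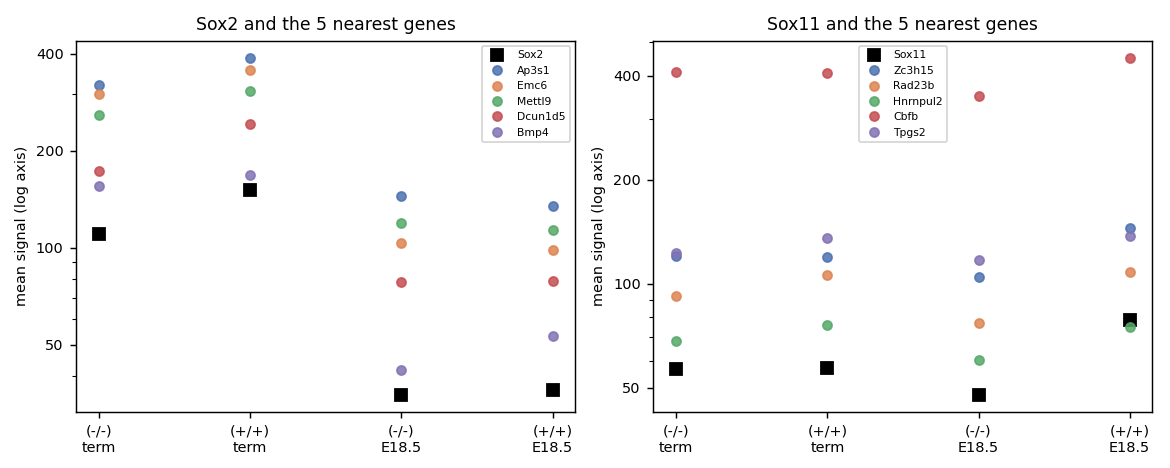
Mean signal (log axis) in the 4 groups of Sox2 and Sox11 (black squares) and of the 5 genes nearest to each over the 16 arrays (coloured points). The genes nearest to Sox2 were all higher in both term groups, and those nearest to Sox11 were lowest in (-/-) lungs at E18.5.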

How the data were processed

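The authors labelled total RNA of single lungs and hybridised each to its own U74Av2 mouse GeneChip of Affymetrix. The deposited values are linear signal intensities from Microarray Suite, 1 per probe set, scaled per array by the authors. Their detection p-values were not used here. MAS signals of weak probe sets carry mismatch noise, and scaling assumes equal total signal. Values were analysed as log2(signal + 16). A probe set was tested where the median of at least 1 group exceeded a signal level set from the share of probe sets that the methods call present, which left 5879 to 6458 probe sets per comparison. Groups were compared with limma 3.58.1 in R 4.3.3 (lmFit, eBayes with trend, two-sided), with Benjamini-Hochberg adjustment over all probe sets tested and calls at an adjusted p under 0.05. Single probe sets were also tested by exact permutation (scipy 1.17.1). The interaction used all 16 arrays. Fits were tested on simulated data. In the simulated comparison over time in (-/-) lungs, run on 5971 probe sets, 39.7% of 2-fold and 83.1% of 3-fold changes were recovered. In that at term between genotypes, run on 6054, 5% of 2-fold changes were. The simulation used independent normal noise and changed a far smaller share of probe sets than the 26.7% called over time in (-/-) lungs. The adjusted threshold depends on that share, so the recovery over time describes the simulation and not these data. Gene names came from the platform annotation, where 10855 probe sets had 1 symbol, 396 had several and 1193 non-control probe sets had none. The named genes were all Sox probe sets of the members, the 5 genes nearest to Sox2 and to Sox11, and genes called within lists of endothelial, airway epithelial, distal epithelial, early neural and SOXC target, cartilage, beta-catenin, proliferation, heart muscle, mesenchyme and lymphocyte genes. Members and lists were chosen with earlier results of these data known. Precision is limited by how few arrays each group has. The highest correlation between any of 120 pairs of arrays was 0.977 (log2 values) and none was a duplicate. Alternatives changed the pseudocount, filter, normalization, weights, covariates, test and arrays.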

Additional observations from a re-analysis of the deposited data

Results flagged for a closer look

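Within 22 groups of 5 arrays (11 probe sets at E18.5 in each genotype), 4 had 1 array far from the others by Dixon's criterion on linear signals. Chance meets it in about 1 group in 20 where values are normally distributed, which was not checked. The criterion was not run on log2 values, so an excess over chance cannot be read from this count. Sox4 101430_at read 233.1 in (-/-) replicate E at E18.5, where the other 4 lungs read 134.5 to 162.9. Sox7 read 160.2 in (-/-) replicate D at E18.5. Sox5 read 89.5 in (+/+) replicate I at E18.5, where the others read 15.2 to 33.9. Replicate I also had the highest median signal, 61.0 against 35.8 to 47.6 on the other 15 arrays, and a mean signal of bacterial control probe sets of 35.3 against 3.58 to 11.1. Sox17 92996_at read 657.7 in (+/+) replicate K at E18.5, which also had the highest GAPDH ratio of its group, 1.59. Without K the rise of Sox17 92996_at in (+/+) lungs was 1.63 (limma, adjusted p = 0.0033).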

How the results depend on the processing

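Between genotypes, and for the change of that difference between ages, none of the Sox probe sets tested was called under any alternative run, array left out or not. Sox11 was not tested at E18.5 or for that change, since its E18.5 contrast chose it. Sox2 was counted for that change, although the changes over time that chose it make up its value, so no test is read from its place there. Over time in (-/-) lungs 2 were called, with 4 under array weights and 2 to 3 with 1 array left out. In (+/+) lungs 3 were called, with 6 under array weights, 0 with Xist as a covariate, 1 with the GAPDH ratio as a covariate, 0 with the methods' t-test after Benjamini-Hochberg (4 of 8 at their own unadjusted threshold), and 0 to 4 with 1 array left out. The causes were not tested. Centring each array on its median moved the median of all probe sets over time by over 0.1. It gave 1038 higher and 517 lower calls in place of 852 and 803 in (-/-) lungs, and 681 and 228 in place of 649 and 491 in (+/+) lungs. Sox17 92996_at then rose by 1.26 in (-/-) and 1.54 in (+/+) lungs. Calls over all probe sets in (+/+) lungs were 183 with Xist as a covariate, 1939 under array weights and 334 without replicate N. Group levels were recomputed after quantile normalization and as medians over arrays, and 87 of these 88 levels moved by less than 1 SD. A median cannot lie more than 1 SD from the mean of the same values, so the medians could not have moved further. Low signals (Sox5, Sox11 93669_f_at and Sox2 at E18.5) limit what could be tested. No paired analysis was possible because each lung carries its own letter and the groups share no replicate numbers.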

Other observations

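Other lists gave these counts over time. Of all probe sets tested, 852 rose and 803 fell of 6193 in (-/-) lungs, and 649 rose and 491 fell of 6145 in (+/+) lungs. Of proliferation genes, 8 fell and 1 rose of 15 tested in (-/-) lungs, and 11 fell of 16 tested in (+/+) lungs, with medians of -0.72 in (-/-) and -1.29 in (+/+) lungs. Top2a, a topoisomerase of dividing cells, fell by 1.31 in (-/-) lungs (limma, adjusted p = 0.00547) and fell by 2.04 in (+/+) lungs (limma, adjusted p = 0.000358). Smc4, a condensin subunit, rose by 0.87 in (-/-) lungs. Between genotypes at E18.5 the proliferation list had a median of -0.44 in (-/-) minus (+/+) lungs, with 14 of 16 genes negative and none called (limma). Of all 5879 probe sets tested there, 2614 were negative, the median was 0.04 and 0.034% were called. Of 10 mesenchymal genes, 2 rose and 2 fell in (-/-) lungs and 2 rose and 1 fell in (+/+) lungs, among them the hedgehog receptor gene Ptch1, higher at term by 0.82 in (-/-) and by 0.92 in (+/+) lungs, and the collagen gene Col1a2, which fell by 1.14 in (-/-) and fell by 1.07 in (+/+) lungs. None of 8 heart muscle genes was called over time. Cd4 fell by 1.02 in (-/-) lungs, 1 of 2 lymphocyte genes tested there.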
